A study of Mus musculus with 24 samples.

Results

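The Rtl1-antisense miRNAs are a group of small RNAs that sit head to tail within the imprinted Dlk1-Dio3 region of mouse chromosome 12. They were taken by a fixed list of names that used none of their values, but was chosen with earlier results of these data known. The list holds 10 of the 1073 mature miRNA names in the count tables: mmu-mir-337-5p, mmu-mir-540-3p, mmu-mir-431-5p, mmu-mir-433-3p, mmu-mir-127-5p, mmu-mir-127-3p, mmu-mir-434-5p, mmu-mir-434-3p, mmu-mir-136-5p and mmu-mir-136-3p. All 10 were read in each of the 24 libraries and all 10 passed the filter on low counts in the main fits. A stricter filter, used as an alternative, did not keep all of them. The same stretch holds 8 other names that were counted but were not members. Of those 8, 4 passed the filter over both ways of preparing vesicles, and 5 passed it in the libraries of the precipitation kit.

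The libraries were small RNA libraries of exosome-enriched fractions (EEFs) made from pooled mouse hippocampi and treated with RNase before RNA extraction. The mice were male C57BL/6 of 6 to 9 weeks, of the substrain C57BL/6OlaHsd in the study's methods. Kainic acid (KA), an agonist of glutamate receptors that sets off prolonged seizures (status epilepticus), was injected at 0.3 µg in 0.2 µl into the basolateral amygdala, and control mice had phosphate-buffered saline. Midazolam, which curtails seizures, was given 40 min later at 8 mg/kg, and tissue was taken 24 h or 2 weeks after the injection. Vesicles were prepared either by ultracentrifugation (UC) or with a precipitation kit (kit), so there were 8 groups of 3 libraries: control and KA, at 24 h and at 2 weeks, by each method. UC and kit material came from separate pools, and in the study's methods more hippocampi were pooled for a UC sample than for a kit sample. The method, the set of animals behind it and the pool size therefore cannot be told apart. Each library is a pool of hippocampi and each p-value measures the spread between such pools. Total counts ran from 85436 to 169639 in the UC libraries and from 154884 to 676726 in the kit libraries, where 1 read was worth 5.89 to 11.7 and 1.48 to 6.46 counts per 1000000 (CPM).

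In imprinted regions, a gene is used from the copy of only 1 parent. In Dlk1-Dio3 the long noncoding RNAs and miRNAs come from the maternal chromosome, while Dlk1, Rtl1 and Dio3 are used from the paternal one. Rtl1 is a retrotransposon-derived gene, and the miRNAs copied from its opposite strand match its mRNA perfectly and can direct its cleavage. The miRNAs of the region are abundant in brain, and a mature miRNA is cut from the 5′ (5p) or the 3′ (3p) arm of its hairpin. It recognises targets mainly through its seed, bases 2 to 8.

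The mature sequences are printed because they show that these neighbours share no seed, although they come from one stretch of DNA. They are from RefSeq on mouse build GRCm38.p6, 5′ to 3′ in the order in which they lie on the + strand of chromosome 12, with the seed in capitals:
miR-337-5p: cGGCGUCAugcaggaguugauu
miR-540-3p: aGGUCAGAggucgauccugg
miR-431-5p: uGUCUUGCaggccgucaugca
miR-433-3p: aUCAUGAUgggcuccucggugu
miR-127-5p: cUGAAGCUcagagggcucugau
miR-127-3p: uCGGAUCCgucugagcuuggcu
miR-434-5p: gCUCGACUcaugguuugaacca
miR-434-3p: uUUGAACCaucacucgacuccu
miR-136-5p: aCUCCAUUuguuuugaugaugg
miR-136-3p: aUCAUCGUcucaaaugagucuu

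All 10 members matched a RefSeq entry, and they hold 10 different seeds. Of the seeds, 9 were in no other mature mouse miRNA of the table of sequences, and that of miR-540-3p was also in miR-6915-5p. Each mature sequence came from 1 hairpin only, so no member shares its reads with a second copy. The 7 hairpins span 9600 bases, chr12:109585789-109595388 on GRCm38.p6. Rtl1 lies on the − strand over them, with its coding exon at chr12:109589193-109595488 and its coding sequence at chr12:109590172-109595403 in the GENCODE annotation. Of the members, 8 lie inside that coding sequence, and the reverse complement of each of the 8 was found in the Rtl1 transcript: miR-431-5p (chr12:109590459-109590479), miR-433-3p (chr12:109591781-109591802), miR-127-5p (chr12:109592854-109592875), miR-127-3p (chr12:109592888-109592909), miR-434-5p (chr12:109594528-109594549), miR-434-3p (chr12:109594565-109594586), miR-136-5p (chr12:109595331-109595352) and miR-136-3p (chr12:109595366-109595387). The annotation goes against the label for the other 2, since miR-337-5p (chr12:109585818-109585839) and miR-540-3p (chr12:109586122-109586141) lie beyond the 3′ end of Rtl1 and have no match in its transcript.

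Together the 10 members held 16.5 to 33.5% of the counts of a UC library, with a median of 26.5%, and 11.0 to 16.1% of a kit library, with a median of 14.6%. The largest part of that was miR-127-3p, which took 15.3 to 32.4% of the counts in UC libraries and 6.99 to 12.5% in kit libraries. The other 9 members summed to 1.01 to 1.86% of the counts with UC and 1.35 to 5.44% with the kit, mostly as miR-434-3p and miR-136-3p.

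The order of the members by mean level was led by the same 3 names in both methods (CPM scaled by TMM factors over the 24 libraries, mean ± SD, n = 12). In UC libraries miR-127-3p stood at 247040 ± 64413 CPM, rank 1 of all miRNAs. It was followed by miR-434-3p at 6929 ± 1948 CPM and miR-136-3p at 4113 ± 707 CPM. Ranges of miR-127-3p and miR-434-3p did not overlap, whereas those of miR-434-3p and miR-136-3p did, although miR-434-3p was the higher one in 12 of 12 UC libraries.

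Further down in UC libraries came miR-127-5p at 961 ± 208, miR-434-5p at 654 ± 169, miR-540-3p at 494 ± 128 and miR-136-5p at 358 ± 76.0 CPM. Neighbours in the order of these 4 had overlapping ranges. miR-337-5p had 118 ± 36.3 CPM, below every UC value of miR-136-5p. The last 2, miR-433-3p at 44.1 ± 23.5 CPM and miR-431-5p at 30.7 ± 16.4 CPM, rested on 1 to 11 and 2 to 10 reads per UC library, and their order held in 7 of 12 libraries.

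In kit libraries miR-127-3p stood at 104668 ± 17805 CPM, rank 3 of all miRNAs, above miR-434-3p at 21716 ± 9693 CPM and miR-136-3p at 8979 ± 2156 CPM. The middle of the order was rearranged, with miR-136-5p (1639 ± 802 CPM) and miR-434-5p (1581 ± 558 CPM) now above miR-127-5p (397 ± 98.3 CPM) and miR-540-3p (262 ± 78.7 CPM). miR-136-5p and miR-434-5p overlapped, and every kit value of miR-434-5p was above every kit value of miR-127-5p. miR-337-5p at 98.7 ± 22.1, miR-433-3p at 92.1 ± 28.8 and miR-431-5p at 50.9 ± 29.7 CPM overlapped each with the next.

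**Figure D1:**
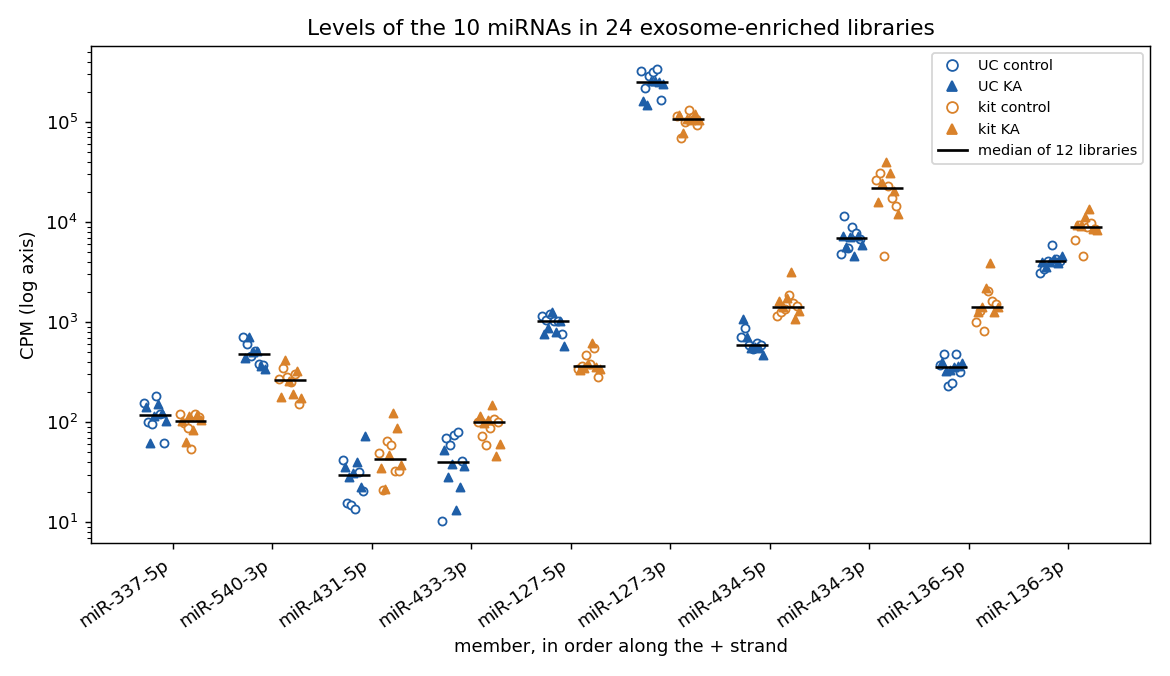
Level of each of the 10 miRNAs (CPM, log axis) in 24 libraries, in order along the + strand, with UC in blue, kit in orange, control as open circles, KA as filled triangles and the median of 12 libraries as a bar. The UC and kit libraries of miR-127-3p do not overlap and UC is the higher, while those of miR-434-5p and miR-136-5p do not overlap and the kit is the higher.

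The comparison of the methods asked whether 2 ways of preparing EEFs give the same content of these miRNAs. Neighbours on 1 strand differed in opposite directions. Both arms of miR-127 and miR-540-3p were lower with the kit, and both arms of miR-434, both arms of miR-136, miR-433-3p and miR-431-5p were higher. In edgeR's quasi-likelihood test over both methods, 9 of the 10 members passed an adjusted p of 0.05, 6 of them higher and 3 lower with the kit. Of all 397 miRNAs tested, 66.2% passed, 33.2% higher and 33% lower, so most miRNAs differed between the methods.

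miR-127-3p ranged from 146713 to 341806 CPM in UC libraries, with a median of 252096, and from 68565 to 132445 CPM in kit libraries, with a median of 106076. The highest kit library was below the lowest UC library. Its partner on the 5p arm, miR-127-5p, went from a median of 1025 CPM (577 to 1250) to 362 CPM (282 to 613), with a log2 change of -1.26 ± 0.15 (SE, adjusted p = 8.48e-09). One kit library overlapped the UC range of miR-127-5p. miR-540-3p fell from a median of 481 CPM (343 to 716) to 265 CPM (153 to 414), a log2 change of -0.92 ± 0.18 (adjusted p = 3.40e-05), with overlapping ranges.

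Both arms of miR-434 were higher with the kit. The median of miR-434-3p was 6907 CPM (4560 to 11536) in UC and 21703 CPM (4610 to 39977) in kit libraries, a log2 change of 1.66 ± 0.21 (adjusted p = 1.12e-08). Of the 12 kit libraries, 11 were above every UC library, and the remaining one, control 24 h replicate 2 at 4610 CPM, was within the UC range. miR-434-5p rose from 593 CPM (468 to 1079) to 1428 CPM (1085 to 3190) without overlap, a log2 change of 1.27 ± 0.17 (adjusted p = 7.02e-08).

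The largest change among the members was that of miR-136-5p, from 358 CPM (230 to 482) to 1414 CPM (809 to 3875), a log2 change of 2.16 ± 0.20 (adjusted p = 1.33e-11). Every kit library was above every UC library. Its partner miR-136-3p rose less, from 4039 CPM (3115 to 5940) to 8996 CPM (4563 to 13396), a log2 change of 1.11 ± 0.14 (adjusted p = 7.85e-09). Here 1 kit library, again control 24 h replicate 2, overlapped the UC range.

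The 3 members with the fewest reads showed smaller or less certain changes. miR-433-3p rose by 1.08 ± 0.27 on the log2 scale (adjusted p = 0.000612), from a median of 40.0 to 99.5 CPM. miR-431-5p rose by 0.78 ± 0.30 (adjusted p = 0.0240), from 29.7 to 42.6 CPM. That call rested on 1 library, since without kit KA 2 weeks replicate 2 the change was 0.50 with an adjusted p of 0.149. The medians of miR-337-5p were 118 CPM in UC and 104 CPM in kit libraries, a log2 change of -0.27 ± 0.20 that did not pass (adjusted p = 0.213).

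UC and kit libraries did not overlap for 3 of the 10 members (miR-127-3p, miR-434-5p and miR-136-5p), compared with 12.3% of all miRNAs tested. Under TMM, the log2 change (kit minus UC) was 0.77 for miR-92b-3p and -0.06 for miR-25-3p. Using this pair as the reference in place of TMM moved the median change of all miRNAs from -0.02 to -0.45 on the log2 scale. All 10 members kept their direction under that scaling, but miR-431-5p (0.37, adjusted p = 0.347) and miR-433-3p (0.69, adjusted p = 0.0511) no longer passed, and miR-337-5p did (-0.69, adjusted p = 0.0224).

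Other names of the same stretch behaved in the same mixed way. miR-431-3p, the opposite arm of miR-431-5p, had a log2 change of -0.95 ± 0.15 (kit minus UC, adjusted p = 1.64e-06), so the arms of miR-431 went in opposite directions, with the call of miR-431-5p resting on 1 library. miR-665-3p was lower (-1.76 ± 0.30, adjusted p = 4.10e-06) and miR-337-3p, the opposite arm of miR-337-5p, was higher (1.41 ± 0.40, adjusted p = 0.00240). miR-433-5p, miR-540-5p and the 3 names of miR-3070 had few or no reads in most libraries.

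The larger cluster of the region, from miR-379 to miR-410, is copied from the same strand further along. The list of names used for it also holds a name on the − strand and a name that lies past miR-410. Of its 71 names, 41 were tested, 19 were higher with the kit and 13 lower, with a median log2 change of 0.66. The median of the 10 members was 0.93, and that of all 397 miRNAs was -0.02. Its 3 most abundant members were miR-541-5p (-0.15 ± 0.11, adjusted p = 0.209), miR-410-3p (1.96 ± 0.19, adjusted p = 5.24e-11) and miR-411-5p (1.47 ± 0.16, adjusted p = 5.03e-10).

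Over the members, the method difference ran against the share of G and C bases in the mature sequences printed above. miR-136-5p and miR-136-3p, each with 36.4% G and C, were higher with the kit, as were miR-434-3p at 45.5% and miR-434-5p at 50%. miR-127-3p at 59.1% and miR-540-3p at 60% were lower. Members of 54.5 to 57.1% went both ways, with miR-433-3p and miR-431-5p higher, miR-127-5p lower and miR-337-5p not passing.

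Over the 10 members the log2 change and the share of G and C had a Pearson r of -0.74 and a Spearman rho of -0.79. Among all miRNAs tested, 359 of 397 had a RefSeq sequence, and over these r was -0.55 and rho was -0.56. The 59 miRNAs under 40% G and C had a median log2 change of 1.11, with 37 higher and 4 lower with the kit. The 108 at or above 55% had a median of -1.03, with 12 higher and 66 lower. These are descriptions across miRNAs that share the same libraries, scaling and depth, and miRNAs are not independent replicates. The part of base composition in the method difference was not tested.

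**Figure D2:**
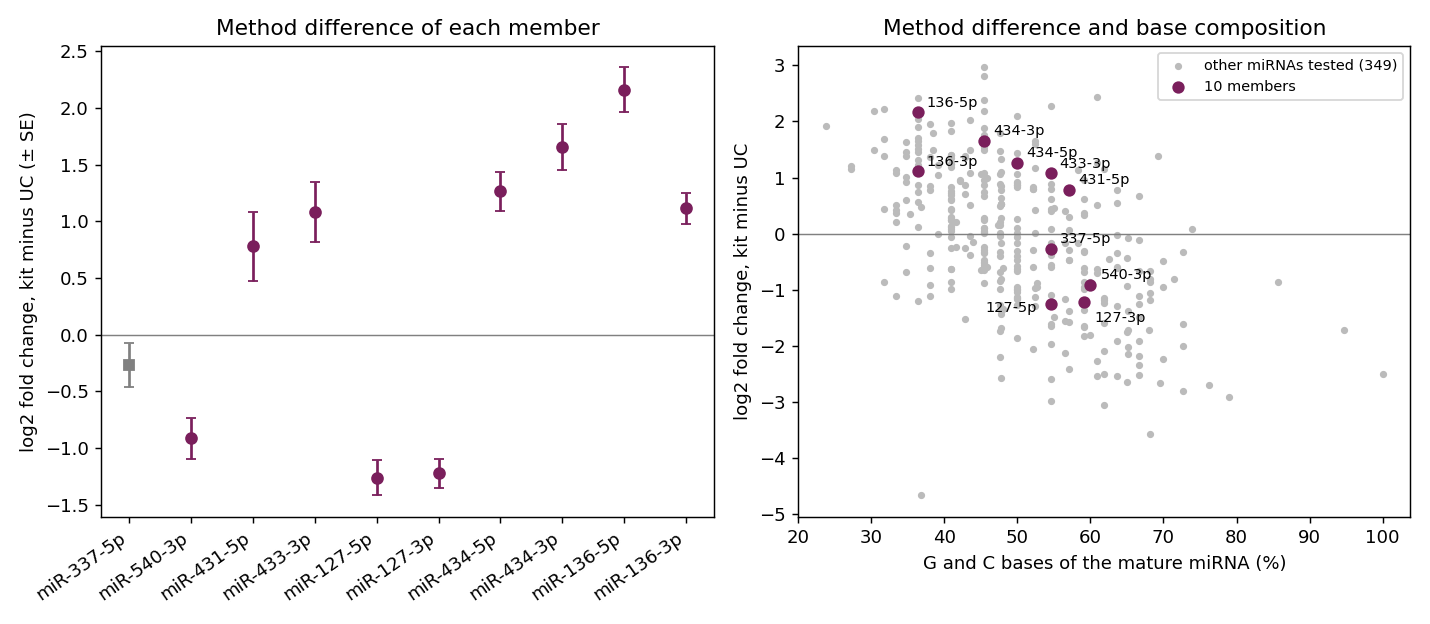
Left, log2 fold change of each member between methods (kit minus UC, ± SE), in order along the strand, with the 1 member that did not pass as a grey square. Right, the same change against the share of G and C bases in the mature sequence for the 10 members and 349 other miRNAs; miR-136-5p at 36.4% stands at 2.16 and miR-127-3p at 59.1% stands at -1.22.

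Summed markers of some cell types differed between the methods as well, but not every marker of a list did. The summed level of 5 neuronal miRNAs, of which miR-128-3p and miR-124-3p had the most reads, was 14923 to 21086 CPM in UC and 20605 to 35828 CPM in kit libraries. Their log2 changes (kit minus UC) were 1.06 for miR-128-3p, 1.36 for miR-218-5p, 0.41 for miR-138-5p and 0.10 for miR-132-3p. For miR-124-3p the change was -0.03 (adjusted p = 0.871 in edgeR). The 3 miRNAs of oligodendrocytes, of the miR-219a and miR-338 families, summed to 6881 to 10515 CPM in UC and 1652 to 2378 CPM in kit libraries. Over all 24 libraries together, the reads were 14005 of miR-219a-2-3p, 6134 of miR-338-3p and 807 of miR-219a-5p. These totals do not give the make-up of the sum in each method. The log2 change was -1.12 for miR-219a-5p but only -0.25 for miR-338-3p (adjusted p = 0.0935 in edgeR), and that of miR-219a-2-3p is not given here. The endothelial pair miR-126a-3p and miR-126a-5p summed to 241 to 541 CPM and 2236 to 3332 CPM. All 10 of these markers were read in both methods, and their part in the method difference of the Rtl1-antisense miRNAs was not tested. The 3 markers of red blood cells summed to at most 11.3 CPM in UC and 201 CPM in kit libraries, and the 3 of microglia and myeloid cells to at most 117 and 143 CPM. The 3 of choroid plexus lay between 336 and 3530 CPM in UC and between 690 and 3044 CPM in kit libraries. The UC maximum came from 1 KA library at 2 weeks, where the group median was 742 CPM. The other UC groups reached at most 1073 CPM. The kit maximum was also in the KA group at 2 weeks, with a median of 1541 CPM. Of the 4 markers of other organs, the 2 in the tables summed to at most 21.0 CPM in any library.

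The arms of a hairpin are counted in the same library, so their ratio does not depend on how libraries are scaled. Both arms of 3 hairpins were members. For miR-127, the log2 ratio of 3p over 5p reads (with 0.5 added to each) was 7.98 ± 0.37 in UC and 8.05 ± 0.39 in kit libraries (SD, n = 12). The 5p arm held 0.403% of the reads of the hairpin with UC and 0.387% with the kit, as means over libraries. The difference between methods was 0.07 ± 0.18 (SE), with an adjusted p of 0.734 in limma over 34 hairpins.

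miR-136 differed from this. Its log2 ratio was 3.52 ± 0.46 with UC, between 2.82 and 4.56, and 2.53 ± 0.32 with the kit, between 1.79 and 2.88. The difference was -0.99 ± 0.18 (adjusted p = 1.29e-05), and the exact permutation test within the 4 conditions gave p = 2.5e-05 (two-sided). The 5p arm held 8.21% of the reads of the hairpin with UC and 15.0% with the kit. Only 2 kit libraries at 2.86 and 2.88 reached the lowest UC library, at 2.82.

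For miR-434 the ratio was 3.39 ± 0.42 in UC and 3.66 ± 0.80 in kit libraries, a difference of 0.28 ± 0.24 that did not pass (adjusted p = 0.282). Its lowest library was kit control 24 h replicate 2 at 1.77, where the 5p arm held 22.6% of the reads, and the other kit libraries lay between 3.22 and 4.63. Without that library the difference was 0.45 with an adjusted p of 0.0437. In all, the ratio of 1 of the 3 hairpins passed, against 76.5% of the 34 hairpins with enough reads on both arms. Both arms were called in the method difference for 23 of those 34 hairpins, in the same direction for 13, which included miR-127, miR-434 and miR-136.

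**Figure D3:**
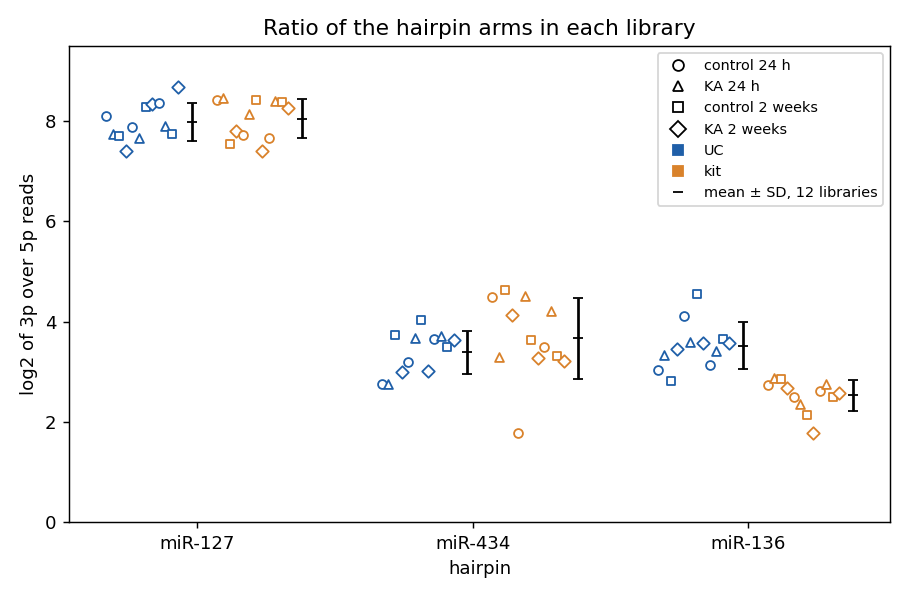
Log2 ratio of 3p over 5p reads in each of 24 libraries for the hairpins of miR-127, miR-434 and miR-136, with UC in blue and kit in orange, a symbol for each treatment and time, and the mean ± SD of 12 libraries as a bar. The ratio of miR-127 is near 8 in both methods, that of miR-136 is 3.52 with UC and 2.53 with the kit, and 1 kit library of miR-434 lies at 1.77.

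Treatment did not move the arms beyond their spread. Over both methods and both times, the KA minus control difference of the log2 ratio was 0.003 ± 0.17 for miR-127, 0.02 ± 0.25 for miR-434 and -0.06 ± 0.19 for miR-136 (SE, adjusted p = 0.992 for each in limma). Exact permutation tests within method and time gave p = 0.987, 0.949 and 0.734. No hairpin of the 34 passed in limma (0%), and 1 had an unadjusted p under 0.05.

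The comparison of KA with control addressed how status epilepticus changes the miRNAs of hippocampal EEFs, and each method was fitted on its own 12 libraries. None of the 10 members passed an adjusted p of 0.05 at either time with either method in edgeR, DESeq2 or limma-voom. The share of all miRNAs that passed in edgeR was 0.476% with UC at 24 h, 0.952% with UC at 2 weeks, and 0% with the kit at both times. At an unadjusted p under 0.05, the edgeR counts of members were 0 with UC at 24 h, 2 with UC at 2 weeks, and 0 with the kit at both times, beside 2.86%, 7.86%, 4.62% and 2.69% of all miRNAs.

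miR-127-3p, the most abundant member, had 322252, 285439 and 341806 CPM in the UC controls at 24 h and 163549, 255658 and 248535 CPM in the KA libraries. The 3 KA libraries were below the 3 controls, which was so for 1 of the 10 members in this comparison and for 9.05% of all miRNAs in one or the other direction. The log2 change was -0.50 ± 0.26 (unadjusted p = 0.0607, adjusted p = 1.00 in edgeR), and -0.32 without KA 24 h replicate 1. The kit gave 115870, 100414 and 111986 CPM in controls and 116326, 107520 and 121219 CPM after KA at 24 h, a log2 change of 0.09 ± 0.24. The KA effect of miR-127-3p at 24 h did not differ between methods beyond its error (kit minus UC, 0.58 ± 0.36 on the log2 scale, adjusted p = 0.996).

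At 2 weeks miR-127-3p had 220551, 317209 and 165705 CPM in UC controls and 146713, 257719 and 239339 CPM after KA. The kit gave 68565, 132445 and 94118 CPM in controls and 78479, 104631 and 104444 CPM after KA. The groups overlapped in both methods, with log2 changes of -0.13 ± 0.26 and -0.10 ± 0.24.

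miR-434-3p had 11536, 9020 and 6715 CPM in UC controls at 2 weeks and 5679, 4560 and 5839 CPM after KA. All KA libraries were below all controls, with a log2 change of -0.77 ± 0.27 (unadjusted p = 0.00676, adjusted p = 0.355 in edgeR). At 24 h the UC controls had 4797, 5472 and 7793 CPM and the KA libraries 7324, 7098 and 7309 CPM, a log2 change of 0.27 ± 0.27 with overlapping groups. The 2 UC effects differed by -1.04 ± 0.38 (2 weeks minus 24 h), with an unadjusted p of 0.00924 and an adjusted p of 0.324.

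The kit libraries of miR-434-3p spread more widely. Controls had 26082, 4610 and 17471 CPM at 24 h and 31141, 23126 and 14415 CPM at 2 weeks, and KA libraries had 15905, 39977 and 20279 CPM and 24678, 30983 and 11926 CPM. The groups overlapped at both times, with log2 changes of 0.67 ± 0.47 and -0.08 ± 0.47.

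miR-433-3p and miR-431-5p had few reads in UC libraries. At 2 weeks miR-433-3p had 70.4, 74.0 and 41.5 CPM (9, 11 and 4 reads) in UC controls and 28.5, 13.4 and 36.5 CPM (5, 2 and 5 reads) after KA. The KA libraries were below the controls, and the log2 change was -1.25 ± 0.64 (unadjusted p = 0.0564, adjusted p = 0.577 in edgeR). With the kit it was 0.23 ± 0.44, and the difference between methods was 1.53 ± 0.75 (unadjusted p = 0.0484, adjusted p = 0.996).

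miR-431-5p had 15.6, 13.5 and 20.7 CPM (2 reads in each) in UC controls at 2 weeks and 28.5, 40.1 and 73.1 CPM (5, 6 and 10 reads) after KA. The KA libraries were above the controls, with a log2 change of 1.46 ± 0.72 (unadjusted p = 0.0492, adjusted p = 0.577 in edgeR). The kit gave 21.0, 59.3 and 32.2 CPM in controls and 21.3, 122.6 and 37.7 CPM after KA, a log2 change of 0.73 ± 0.58. Over both methods the change was 1.12 ± 0.46 (unadjusted p = 0.0197, adjusted p = 0.721). With UC, these values rest on 2 to 10 reads per library.

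The other 6 members (miR-337-5p, miR-540-3p, miR-127-5p, miR-434-5p, miR-136-5p and miR-136-3p) had an unadjusted p above 0.05 in each of the 4 comparisons of KA with control. For 3 members the KA and control libraries did not overlap with UC at 2 weeks, namely miR-434-3p, miR-433-3p and miR-431-5p, beside 10.2% of all miRNAs. With the kit no member was apart at 24 h or at 2 weeks, beside 9.42% and 5.19%. Neurons are lost after status epilepticus in this model, and in bulk fractions fewer cells of a type and less RNA per cell cannot be told apart.

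**Figure D4:**
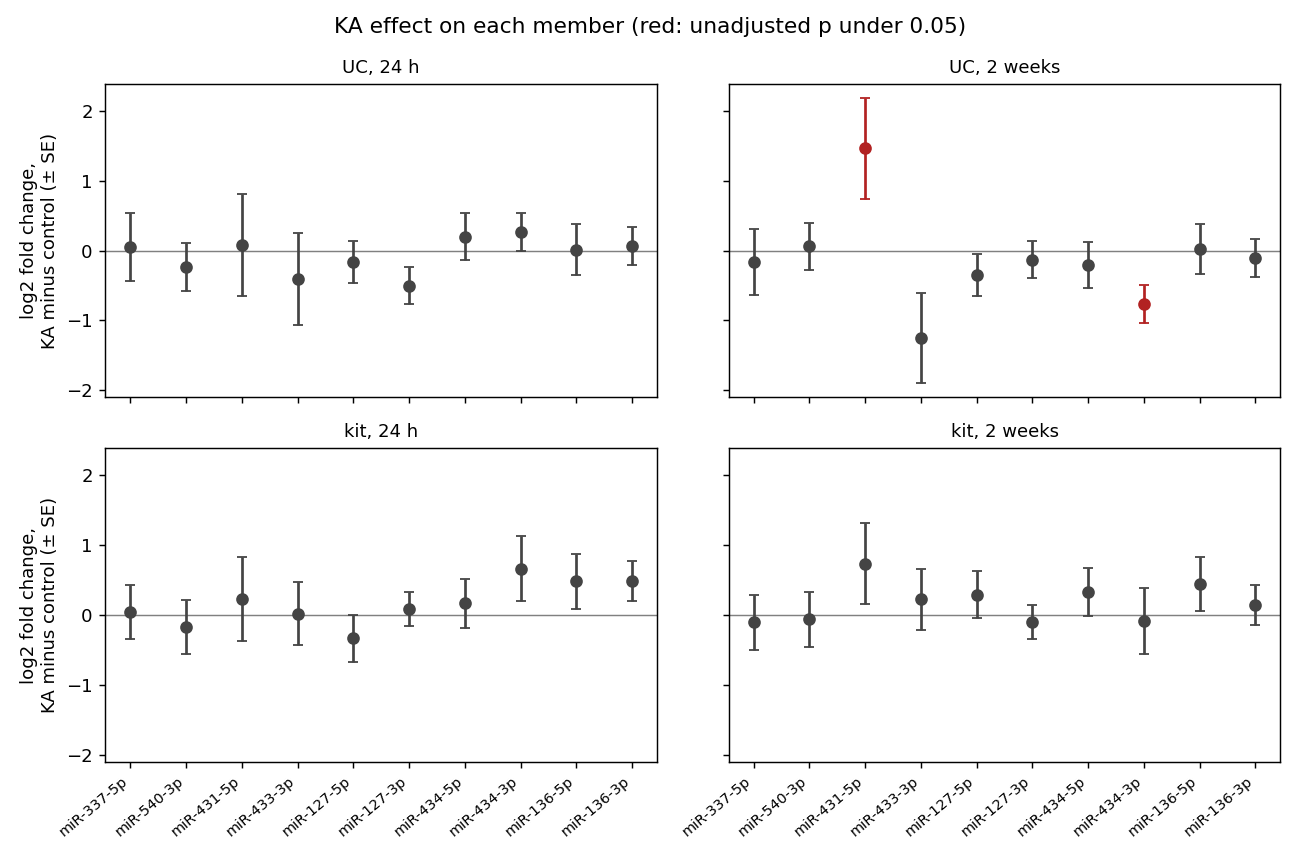
Log2 fold change of KA minus control (± SE) for each of the 10 miRNAs, by method and time, with members of unadjusted p under 0.05 in red. Only miR-434-3p at -0.77 and miR-431-5p at 1.46, both with UC at 2 weeks, are red, and neither passed adjustment.

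Over both methods no member passed at 24 h or 2 weeks (0.756% and 0.504% of all miRNAs did). At an unadjusted p under 0.05 the members' counts were 0 and 1 (miR-431-5p), beside 5.29% and 6.55%. The time differences (2 weeks minus 24 h) gave no adjusted call among the members either, beside 0% of all miRNAs in UC controls, 0.952% in UC after KA, 0% in kit controls and 0.192% in kit libraries after KA. The unadjusted counts were 1, 0, 0 and 0, beside 4.05%, 10.5%, 3.65% and 3.08%. The 1 was miR-434-3p, which was higher at 2 weeks than at 24 h in UC controls by 0.60 ± 0.27 on the log2 scale (unadjusted p = 0.0308, adjusted p = 0.970 in edgeR). Leaving out 1 library moved that value between 0.36 (without control 2 weeks replicate 1) and 0.87 (without control 24 h replicate 3).

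No interaction passed for a member. For the KA effect of the kit against that of UC, 0% of all miRNAs passed at 24 h and 0% at 2 weeks, and unadjusted counts of members were 0 and 1 (miR-433-3p), beside 2.27% and 3.53%. For the KA effect at 2 weeks against that at 24 h, 0.476% of all UC miRNAs and 0% of all kit miRNAs passed, and the unadjusted counts of members were 1 (miR-434-3p) and 0, beside 6.9% and 3.27%. DESeq2 gave 0 adjusted calls among the members in all of these comparisons.

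Over the libraries of a method, the levels of most pairs of members were only weakly correlated, although their hairpins lie within 9600 bases. In the 12 UC libraries no member passed an adjusted p of 0.05 for a correlation with miR-127-3p on the log2 CPM scale, by Pearson r or Spearman rho (permutation test). Of all 198 partners, 0% passed by r, and miR-412-5p alone passed by rho. The closest member was miR-337-5p, with a Pearson r of 0.66 (permutation p = 0.0207, adjusted 0.121) and a Spearman rho of 0.55 (permutation p = 0.0709, adjusted 0.246). It ranked 19 of 198. Without the 2 libraries farthest from the median of miR-127-3p r was 0.77, and without the 2 farthest from the median of miR-337-5p it was 0.19, so the relation rests on those libraries. miR-127-5p from the same hairpin had r = 0.50 and rho = 0.50 (permutation p = 0.0959 and 0.105, adjusted 0.292 and 0.309), at rank 34.

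The 3 miRNAs most like miR-127-3p in UC libraries were miR-412-5p (r = 0.85, rho = 0.91), miR-298-5p (r = 0.83, rho = 0.84) and miR-409-3p (r = 0.83, rho = 0.60). Their adjusted permutation p values were 0.0634, 0.0634 and 0.0685 for r and 0.0257, 0.0818 and 0.211 for rho. miR-412-5p and miR-409-3p belong to the miR-379 to miR-410 cluster. Without the 2 farthest libraries r was 0.88, 0.76 and 0.61.

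In the 12 kit libraries no miRNA passed for a correlation with miR-127-3p (264 partners, 0% called). The 3 highest were miR-99a-5p (r = 0.67, rho = 0.43), miR-3473f (r = 0.67, rho = 0.70) and miR-431-5p (r = 0.64, rho = 0.62), each with an adjusted permutation p of 0.956 for r and 1.00 for rho. Without the 2 farthest libraries r was 0.13, 0.50 and 0.32. miR-127-5p had r = 0.13 with miR-127-3p and rank 97.

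Among themselves, the 8 members with at least 10 reads per UC library on average formed 28 pairs, with a median r of 0.05 and 2 pairs above 0.5. Over all pairs of miRNAs in UC libraries the median was 0.01 and 12.5% were above 0.5. In kit libraries all 10 members formed 45 pairs, with a median r of 0.13 and 11 pairs above 0.5, beside a median of 0.02 and 13% over all pairs.

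In kit libraries the pairs of members with the highest r lay at the miR-434 and miR-136 end, but other miRNAs were closer still. Among 264 partners, miR-434-5p and miR-136-3p ranked 10 and 11 for miR-136-5p, which ranked 3 for each of them. miR-434-3p ranked 15 for miR-136-3p, which ranked 14 for miR-434-3p. With UC the pair of highest r was miR-127-3p and miR-337-5p (0.66). An adjusted p here depends on which of the 2 miRNAs the 264 partners are counted for, so both are given, as is r without the 2 libraries farthest from the median of each. In kit libraries the 2 arms of miR-136 had r = 0.87 (adjusted permutation p = 0.0254 for miR-136-3p and 0.0180 for miR-136-5p) and rho = 0.78 (0.102 and 0.0688), with r = 0.73 and 0.73 without 2 libraries. miR-136-5p and miR-434-5p had r = 0.88 (adjusted permutation p = 0.0153 for miR-136-5p and 0.0508 for miR-434-5p) and rho = 0.83 (0.0462 and 0.184), with r = 0.81 and 0.56 without 2 libraries. miR-136-3p and miR-434-3p had r = 0.78 (adjusted permutation p = 0.0463 and 0.0619) and rho = 0.66 (0.210 and 0.154), but r was 0.36 and 0.43 without 2 libraries.

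The same pairs were not close in UC libraries, where the 2 arms of miR-136 had r = -0.37 and rho = -0.10 (adjusted permutation p = 0.636 and 0.960). The arms of miR-434 had r = 0.30 with UC and 0.35 with the kit. For these members 2 kit libraries stood out. KA 2 weeks replicate 2, the deepest library, had the highest miR-136-5p (3875 CPM), miR-136-3p (13396 CPM) and miR-434-5p (3190 CPM), and control 24 h replicate 2, the shallowest kit library, had the lowest miR-136-5p (809 CPM), miR-136-3p (4563 CPM) and miR-434-3p (4610 CPM). The part of depth in these values was not tested.

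**Figure D5:**
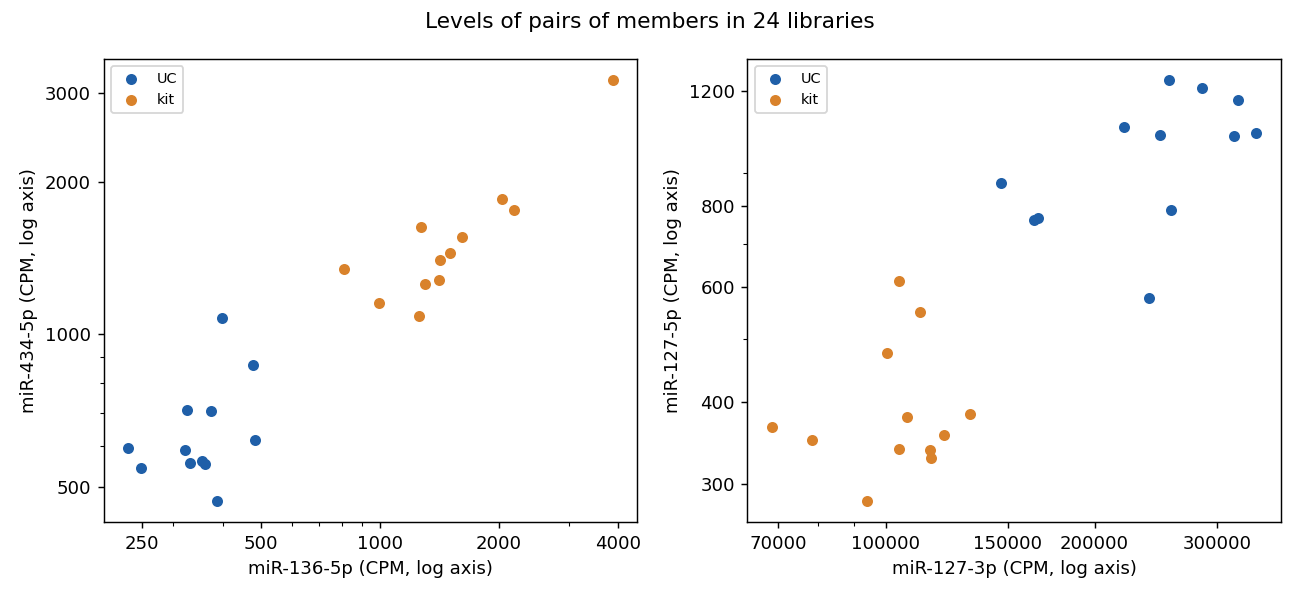
Levels (CPM, log axes) in 24 libraries of miR-434-5p against miR-136-5p on the left and of the arms of miR-127 on the right, with UC in blue and kit in orange. The kit libraries lie along a line on the left (r = 0.88 within the kit), while miR-127-5p against miR-127-3p has r = 0.13 within the kit and 0.50 within UC.

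A second set of tables listed how reads differed from the reference miRNA, mostly at their 3′ end, where bases are added or trimmed after the hairpin is cut. The members differed widely in this share. Reads of miR-434-3p were altered in 0.966 to 1.96% of cases over UC libraries and in 1.08 to 1.68% over kit libraries. Those of miR-136-3p were altered in 0.333 to 1.91% and 1.02 to 1.93%. Over all UC libraries together, 1.62% of reads were altered for miR-434-5p and 1.67% for miR-136-5p, and 2.86% and 3.27% over the kit libraries.

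The arms of miR-127 were altered more often. For miR-127-3p the share was 6.28 to 16% over UC libraries, with a median of 10.1%, and 9.17 to 26.4% over kit libraries, with a median of 13.4%. For miR-127-5p the medians were 10.9 and 12.3%. A single added A was the most frequent of the 4 single-base additions to miR-127-3p, in 3.72% of all UC reads and 4.32% of all kit reads, whereas a single U was for miR-127-5p, in 4.54 and 5.90%. miR-433-3p had a single added A in 8.82% of its 68 UC reads and 11.6% of its 379 kit reads. Over all UC and all kit reads, the altered share was 5.03 and 7.55% for miR-337-5p, 6.41 and 10.1% for miR-540-3p, 10.3 and 20.6% for miR-433-3p, and 6.38 and 2.75% for miR-431-5p, which had 47 and 218 reads. These shares were not tested between methods.

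Over miRNAs with at least 100 reads, the median altered share was 12.3% with UC (208 miRNAs) and 14.9% with the kit (279 miRNAs). miR-136-3p and miR-434-3p ranked 204 and 203 of 208 from the most altered, miR-136-5p and miR-434-5p ranked 201 and 202, and miR-127-3p ranked 124. Internal changes were rare, at 0.0262% of miR-127-3p reads with UC and 0.0405% with the kit.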

How the data were processed

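The authors sequenced small RNA of EEFs, trimmed adapters and mapped reads to miRBase v21 hairpins with the Chimira server, and deposited 2 tables of read counts per library, plain counts per mature miRNA and counts per altered form. The genome build is not given in the sources used here. Deposited counts were used as they are. The 10 members and all lists were chosen with earlier results of these data known. miRNAs above 1 CPM in at least 6 libraries were tested with edgeR 4.0.16 (R 4.3.3; TMM, quasi-likelihood): 420 with UC, 520 with the kit and 397 over both. P-values were adjusted by Benjamini-Hochberg over all miRNAs tested, and the SE is the log2 change over the root of F. Arm ratios were tested with limma 3.58.1, correlations by 100000 permutations (prior count 2) over miRNAs with a mean of at least 10 reads. Pairs not involving miR-127-3p were added after the data were seen, 73 relations among members in all. DESeq2 1.42.0, limma-voom, other scalings and filters, a replicate block and each library left out were the alternatives. The 2 tables of each library gave equal totals in 11992 of 11992 comparisons. Named miRNAs are the members, the other miRNAs of their stretch, the 3 closest to miR-127-3p, the 3 most abundant of the miR-379 to miR-410 list, and, as lists, cell type markers and the study's reference miRNAs. Scripts were tested on simulated data. Total counts set the precision of counting: 1 read is 1.48 to 11.7 CPM. That value does not cover the spread between pools, which the tests measure.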

Additional observations from a re-analysis of the deposited data

How the results depend on the processing

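The number of members called between methods was 9 in the fit described and 7 to 9 under the alternatives, 7 of 8 with at least 10 counts in at least 6 libraries. No member was called for KA, time or an interaction in any alternative run. The number of member hairpins whose arm ratio was called between methods was 1, and 1 to 2 with 1 library left out, the 2 being without kit control 24 h replicate 2. Between methods, miR-431-5p was also lost in limma-voom (0.57, adjusted p = 0.0939). With 1 library left out, its change over both methods at 2 weeks after KA ranged from 0.54 to 1.38, and that of miR-434-3p with UC at 2 weeks from -0.94 to -0.51. That of miR-127-3p with UC at 24 h ranged from -0.61 to -0.32.

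Replicate numbers were not taken as pairs, since the labels give no shared source and not every same-numbered pair had deviations from group means correlated above 0.1. With UC 10 of 18 same-numbered and 3 of 36 other pairs were above 0.1 (medians 0.11 and -0.03), and with the kit 12 of 18 and 7 of 36 (0.12 and -0.05), so same-numbered libraries were more alike, as a hint from the data. With a replicate block, 9 members were called between methods, 0 in the KA, time and interaction comparisons, and 1 hairpin ratio between methods. The block changed no call. Depth limits miR-431-5p and miR-433-3p, at 1 to 11 reads per UC library.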
